A study of Mus musculus with 8 samples.

Results

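The interleukin 1 and 18 receptor genes lie side by side on mouse chromosome 1, and open chromatin around them was read here from 91 accessible regions at chr1:40000000-41000000 of the mm9 build. These regions are all those formed by peaks that overlap the 1 Mb window, out of 114533 regions in the whole series. The measurements are ATAC-seq peak lists, in which a transposase marks DNA that it can reach, from bone marrow cells selected for the receptor c-Kit, a fraction that holds blood stem and progenitor cells. The window was chosen by peak calls, since regions were missing there in Smc3 del/+ cells relative to the other genotypes, so the values of that genotype inside it are a description and carry no test.

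Each of 4 genotypes had 2 libraries of 50000 cells, taken 4 weeks after injection of PIpC, which turns on the interferon-inducible Mx1-Cre recombinase where that transgene is present. Smc3 del/+ mice carried Mx1-Cre and had lost 1 allele of Smc3, whose protein is part of cohesin, a ring that holds DNA strands together and shapes chromatin loops. Flt3-ITD mice carried the internal tandem duplication that keeps the growth factor receptor Flt3 active, and their titles mark them as positive for Mx1-Cre. Smc3-deleted Flt3-ITD mice combined Mx1-Cre, a Smc3 deletion and Flt3-ITD. Their genotype is given as Smc3 fl/del and their title as heterozygous, so the state of the second Smc3 allele is not settled. Control mice were Smc3 fl/+ without Mx1-Cre, so the recombinase and the deleted allele cannot be told apart between them and Smc3 del/+ mice. The labels give neither age nor sex. In the free-text descriptions, the Smc3 del/+ and Flt3-ITD libraries carry each other's alleles compared with title and genotype, so every statement on either rests on title and genotype. The Smc3-deleted Flt3-ITD libraries stand apart on the sex chromosomes, with 2.60% and 2.72% of their peaks on chromosome X and 0.364% and 0.351% on Y, against 3.49% to 3.79% on X and 0.119% to 0.151% on Y in the other 6. The window lies on an autosome, and the differences in regions called and in length covered, and the count of regions that only Smc3 del/+ lacked, are also given without them.

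The cluster holds receptors of the interleukin 1 family, which carry signals of inflammation into cells and act on blood stem and progenitor cells as well as on mature leukocytes. Il1r1 is the signalling receptor for interleukin 1, and Il1r2 is a decoy that binds the same ligands without signalling. Il1rl2 is the receptor for interleukin 36, and Il1rl1, also called St2, is the receptor for interleukin 33 and is known from mast cells, group 2 innate lymphoid cells and some helper T cells. Il18r1 binds interleukin 18, and Il18rap is the accessory chain that completes that receptor. In RefSeq's gene table for GRCm38.p6 the order is Map4k4, Il1r2, Il1r1, Il1rl2, Il1rl1, Il18r1, Il18rap, Slc9a4, Slc9a2, Mfsd9 and Tmem182, and the promoters of all 6 receptor genes are on the plus strand. Neither an mm9 genome nor an mm9 annotation was used, so regions are numbered 1 to 91 along the window and none is assigned to a gene, exon, intron or promoter. For the same reason the c-Kit+ label was not checked against marker loci.

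RefSeq promoters (250 bases before to 50 after a start, GRCm38.p6) were matched for all 6 genes, 10 promoters in all. The 4 that follow are shown because each holds at least 2 of the motifs searched, all letters known for factors of blood cells. Their coordinates belong to another build than the regions and cannot be set beside them. Capitals mark matches, on either strand, to AGATAA (known from factors of the GATA family), TGATAA (a variant for the same family), TGTGGT (RUNX factors), GAGGAAGT (ETS factors of the PU.1 kind), CACGTG (E-box), TGANTCA (AP-1) or TTCNNNGAA (STAT factors).
Il1r2, chr1:40085843-40086142, plus strand: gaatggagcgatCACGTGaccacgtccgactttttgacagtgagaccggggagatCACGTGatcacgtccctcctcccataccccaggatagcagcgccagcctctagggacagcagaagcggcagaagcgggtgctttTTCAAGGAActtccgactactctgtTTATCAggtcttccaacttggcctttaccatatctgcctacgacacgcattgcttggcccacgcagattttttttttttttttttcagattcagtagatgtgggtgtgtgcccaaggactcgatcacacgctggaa
Il1rl1, upstream start, chr1:40429320-40429619, plus strand: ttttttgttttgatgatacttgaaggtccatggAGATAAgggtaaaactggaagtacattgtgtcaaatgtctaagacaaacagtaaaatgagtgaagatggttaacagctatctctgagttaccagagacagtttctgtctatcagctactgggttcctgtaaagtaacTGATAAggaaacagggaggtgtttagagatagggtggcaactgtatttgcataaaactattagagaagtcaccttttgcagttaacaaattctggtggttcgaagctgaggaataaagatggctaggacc
Il1rl1, downstream start, chr1:40439379-40439678, plus strand: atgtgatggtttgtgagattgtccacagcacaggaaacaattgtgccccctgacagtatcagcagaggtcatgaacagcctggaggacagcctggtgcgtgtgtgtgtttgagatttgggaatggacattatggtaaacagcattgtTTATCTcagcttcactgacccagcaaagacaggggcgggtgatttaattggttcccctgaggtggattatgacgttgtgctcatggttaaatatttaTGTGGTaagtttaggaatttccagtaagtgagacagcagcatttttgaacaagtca
Il18rap, chr1:40515112-40515411, plus strand: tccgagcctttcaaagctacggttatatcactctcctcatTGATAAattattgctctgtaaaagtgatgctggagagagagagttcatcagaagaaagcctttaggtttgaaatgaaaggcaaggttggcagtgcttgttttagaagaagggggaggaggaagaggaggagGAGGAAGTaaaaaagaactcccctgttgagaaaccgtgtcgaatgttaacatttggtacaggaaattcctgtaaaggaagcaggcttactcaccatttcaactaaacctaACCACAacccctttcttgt

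AGATAA was found in both Il1rl1 promoters and in no other of the 10, against 11.2% of all 32851 RefSeq promoters of this length. TGATAA was found in 3 promoters, those of Il1r2, Il18rap and the upstream start of Il1rl1, against 9.05% of all. TGTGGT was found in 4 (Il1rl2, the downstream start of Il1rl1, 1 of the 3 starts of Il18r1, and Il18rap), against 16.8%. GAGGAAGT was in the Il18rap promoter alone (3.20% of all), CACGTG in that of Il1r2 alone (7.15%), TTCNNNGAA in those of Il1r2 and Il18r1 (8.30%) and TGANTCA in none (7.81%). Neither Il1r1 promoter held any of these. A match describes letters and does not show a bound site, and the motifs share no letters with one another in the 4 shown.

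Smc3 del/+ cells had fewer accessible regions in the window than cells of any other genotype. The 2 Smc3 del/+ libraries called 44 and 37 of the 91 regions. The Flt3-ITD libraries called 58 and 52, the Smc3-deleted Flt3-ITD libraries 67 and 65, and the control libraries 63 and 61. Both Smc3 del/+ libraries thus lay below all 6 others. The mean was 40.5 ± 4.95 in Smc3 del/+ (SD, n = 2) and 61.0 ± 5.40 in the other libraries (SD, n = 6), which is 33.6% lower. Over the whole genome Smc3 del/+ lists were shorter too, and the mean number of regions called was 13.0% lower than in the other 6. The lists carry no read depth, so fewer calls cannot be told apart from shallower sequencing by peak number alone. With the same number of peaks kept in every library, the difference in the window was -12.8 regions, against -20.5 with all peaks. Without the 2 Smc3-deleted Flt3-ITD libraries it was -18.25 regions, and -7.72 kb in the length covered.

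Smc3 del/+ cells were also lowest in the bases covered by peaks. Peaks of the Smc3 del/+ libraries covered 28.5 and 24.9 kb of the window. They covered 36.7 and 32.4 kb in Flt3-ITD, 35.1 and 37.0 kb in Smc3-deleted Flt3-ITD, and 33.9 and 34.7 kb in control. The Smc3 del/+ mean of 26.7 ± 2.61 kb (SD, n = 2) was 23.6% below the mean of the other 6 libraries, 35.0 ± 1.72 kb (SD, n = 6). Over all chromosomes the covered length of Smc3 del/+ was 4.23% below that of the other 6 and 0.862% above that of control. With equal peak numbers the difference in the window was -3.07 kb, against -8.25 kb with all peaks. Against list length, the window held 0.0726% and 0.0615% of the peaks in Smc3 del/+ lists, and between 0.0856% and 0.0988% in the other 6.

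**Figure D1:**
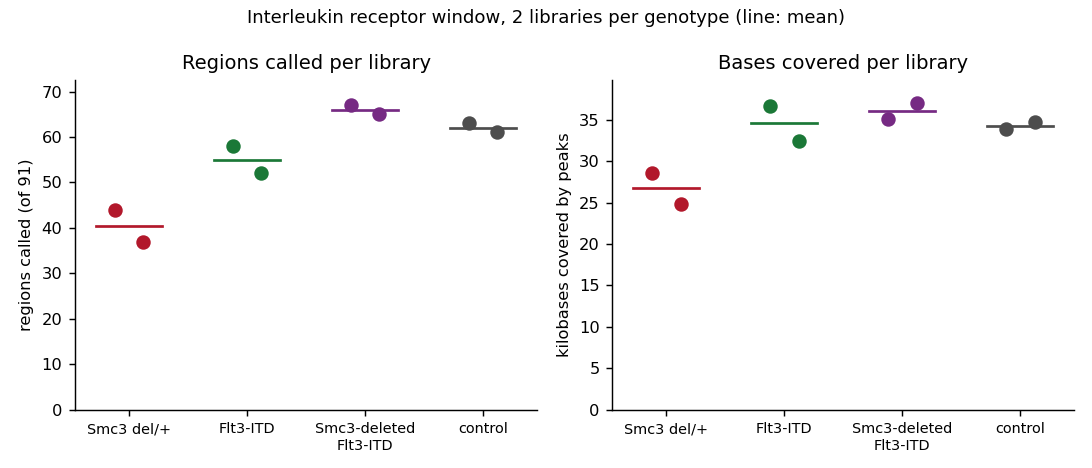
Regions called (left, of 91) and kilobases covered by peaks (right) in the interleukin receptor window, with 1 point per library and a line at the mean of the 2 libraries of each genotype. The Smc3 del/+ libraries, at 44 and 37 regions and 28.5 and 24.9 kb, lie below all 6 others in both plots.

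Regions were scored as lost in a genotype when both libraries of the comparison genotype called them and neither of its own did, and as gained in the reverse case, among regions that at least 1 genotype of the pair called in both its libraries. Smc3 del/+ cells lost 16 of 59 such regions against control (27.1%) and gained 1 (1.69%). Over all chromosomes the rule called 8.04% lost and 3.02% gained. Against Flt3-ITD cells, Smc3 del/+ cells lost 13 of 52 regions (25.0%, with 8.69% over all chromosomes) and gained 5 (9.62%, with 7.91%). Against Smc3-deleted Flt3-ITD cells they lost 20 of 62 (32.3%, with 19.7%) and gained 3 (4.84%, with 5.95%). These 3 comparisons share the Smc3 del/+ libraries. Without Smc3 del/+ replicate 1, the loss against control came to 25 regions, and leaving out any other library gave 14 to 21. With 2 libraries against 2 the smallest permutation p is 0.333, and the loss is what the window was chosen for.

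The comparisons without Smc3 del/+ libraries rested on few lost or gained regions. The distance of Flt3-ITD from its genome-wide shares comes to a few regions and was not tested, and the shares of Smc3-deleted Flt3-ITD were nearer to theirs. Flt3-ITD cells lost 7 of 59 regions against control (11.9%, with 7.85% over all chromosomes) and gained 1 (1.69%, with 4.42%). Smc3-deleted Flt3-ITD cells lost 4 of 68 against control (5.88%, with 6.0%) and gained 9 (13.2%, with 14.2%). Against Flt3-ITD cells, Smc3-deleted Flt3-ITD cells lost 2 of 63 regions (3.17%, with 2.96%) and gained 9 (14.3%, with 13.0%). A Smc3 deletion in the presence of Flt3-ITD thus came with calls near the genome-wide share in both directions. The Smc3-deleted Flt3-ITD libraries, which differ on the sex chromosomes, also have the longest lists, and the part of either in these counts was not tested.

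**Figure D2:**
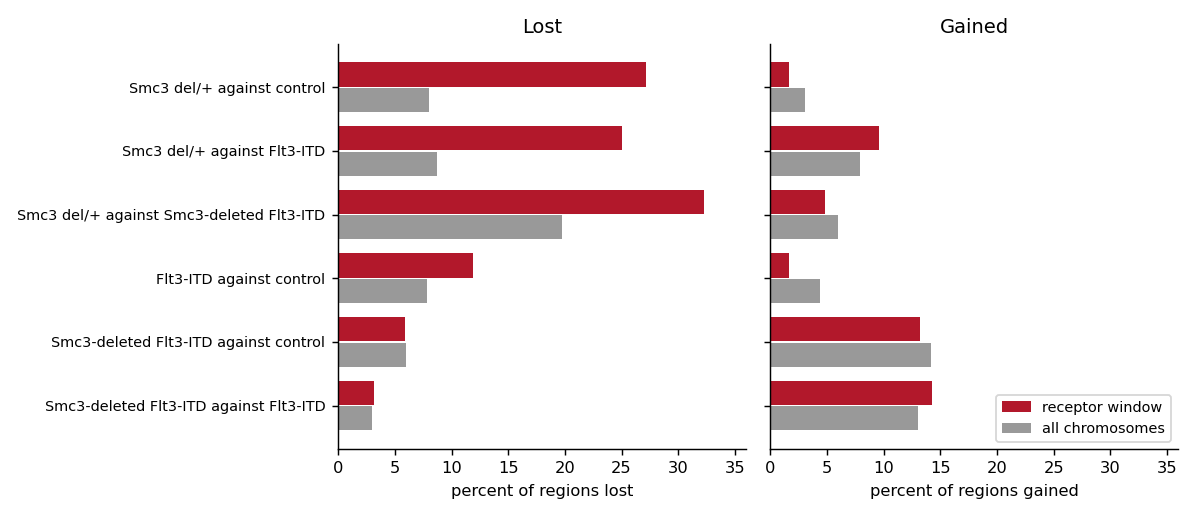
Share of regions lost (left) and gained (right) in the first-named genotype of each pair, in the receptor window (red) and over all chromosomes (grey). Losses in Smc3 del/+ against control were 27.1% in the window and 8.04% over all chromosomes, while the pairs without Smc3 del/+ had losses of 3.17% to 11.9% in the window.

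The 4 libraries with Flt3-ITD were tested against the 2 control libraries, a comparison that uses no Smc3 del/+ library. All 4 are positive for Mx1-Cre by title and both controls lack it, so the recombinase and Flt3-ITD cannot be told apart here. Of the 4, 2 also carry a Smc3 deletion. They called 60.5 ± 6.86 regions (SD, n = 4), against 62.0 ± 1.41 in control (SD, n = 2), a difference of -1.50 (exact two-sided permutation p = 0.867, and 0.867 after Benjamini-Hochberg adjustment over 2 tests). Peaks covered 35.3 ± 2.09 kb with Flt3-ITD (SD, n = 4), against 34.3 ± 0.615 kb in control (SD, n = 2), a difference of 1.0 kb (exact two-sided permutation p = 0.600, adjusted 0.867). The smallest p that these 6 libraries allow is 0.0667, so no difference could pass a threshold of 0.05. With the same number of peaks kept in every library, the differences were -7.75 regions (exact permutation p = 0.0667, unadjusted) and -2.75 kb (exact permutation p = 0.467). Over all settings run, the exact permutation p lay between 0.0667 and 1 for regions and between 0.2 and 1 for kilobases. The Flt3-ITD values (58, 52, 67 and 65 regions) spread on both sides of the control values (63 and 61). With the Smc3-deleted Flt3-ITD libraries left out and the regions rebuilt, the differences were -6.50 regions and 0.273 kb, where 2 libraries against 2 allow no p below 0.333.

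Of 36 regions called in both libraries of Flt3-ITD, Smc3-deleted Flt3-ITD and control, 6 were called in neither Smc3 del/+ library (16.7%, with 3.47% over all chromosomes). No region was absent in the same way from Flt3-ITD alone (of 24 tested, with 1.23% over all chromosomes). The same held for Smc3-deleted Flt3-ITD alone (of 25, with 1.36%) and control alone (of 25, with 0.640%). These tests need calls in both Smc3 del/+ libraries, which leaves few regions. At such low shares a count of 0 is near the share over all chromosomes and sets no contrast. Of the 1 Mb windows, 904 had at least 20 regions called in both libraries of Flt3-ITD, Smc3-deleted Flt3-ITD and control. Among these 904, 8 had a higher share absent from Smc3 del/+ alone than this one. The window was chosen for losses in Smc3 del/+, so this rank is a description and lends no support. With the 2 Smc3-deleted Flt3-ITD libraries left out, an alternative added once the data had been seen, 8 regions were called in both libraries of Flt3-ITD and control and in neither of Smc3 del/+. When peaks had to cover at least 50% of a region to count as a call, none of the 6 was left. Smc3 del/+ libraries had no peak in any of the 6, so this setting brought back no call there. It took away calls of other libraries whose peaks covered less than 50% of the region.

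Region 45, chr1:40351518-40352623, had the highest score of these 6 and lay far from any Smc3 del/+ peak. Its peaks covered 380 and 496 bases in Flt3-ITD libraries, 429 and 302 in Smc3-deleted Flt3-ITD libraries and 1066 and 474 in control libraries. Neither Smc3 del/+ library had a peak in it, and their nearest peaks were 22832 and 22693 bases away. Its mean score percentile, the rank of its best peak within a list, was 67.7 over the 6 libraries.

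Region 3, chr1:40025875-40026645, was as isolated. Peaks covered 466 and 428 bases in Flt3-ITD libraries, 355 and 441 in Smc3-deleted Flt3-ITD libraries and 359 and 716 in control libraries. The nearest Smc3 del/+ peaks lay 23832 and 32104 bases away. It is followed by a stretch of sparse calls in that genotype: the first 100 kb of the window held 12 regions, of which Smc3 del/+ libraries called 2 and 1, Flt3-ITD libraries 7 and 5, Smc3-deleted Flt3-ITD libraries 9 and 5, and control libraries 9 and 8.

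Region 17, chr1:40111776-40112573, had 404 and 366 bases covered in Flt3-ITD libraries, 304 and 444 in Smc3-deleted Flt3-ITD libraries and 379 and 726 in control libraries. Smc3 del/+ libraries had their nearest peaks 2527 and 3473 bases away. Region 61, chr1:40530429-40531223, was narrow in every library that called it. It had 374 and 328 bases in Flt3-ITD, 415 and 264 in Smc3-deleted Flt3-ITD and 347 and 361 in control, and Smc3 del/+ peaks lay 1044 and 7677 bases away.

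The other 2 regions had peaks of both Smc3 del/+ libraries within 1 kb. Region 25, chr1:40144131-40145300, had 1073 and 405 bases covered in Flt3-ITD libraries, 356 and 406 in Smc3-deleted Flt3-ITD libraries and 431 and 350 in control libraries, with Smc3 del/+ peaks 814 and 643 bases away. Region 52, chr1:40435290-40436447, had 1158 and 448 bases in Flt3-ITD libraries, 410 and 391 in Smc3-deleted Flt3-ITD libraries and 400 and 911 in control libraries. Smc3 del/+ peaks lay 879 and 347 bases from it. In both, the absence of a call thus sits beside a peak that both Smc3 del/+ libraries called.

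**Figure D3:**
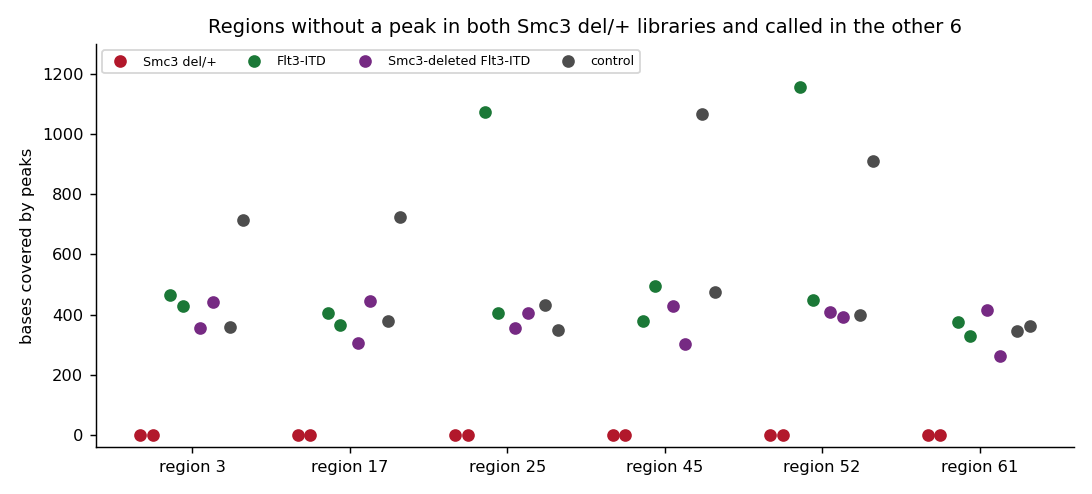
Bases covered by peaks in each library at the 6 regions that only Smc3 del/+ lacked, coloured by genotype. Both Smc3 del/+ libraries are at 0 in each region because no peak was called, and the other 6 lie between 264 and 1158 bases.

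The 16 regions lost in Smc3 del/+ against control were all in the first 600 kb of the window, chr1:40000000-40599999. This stretch held 71 of the 91 regions, and Smc3 del/+ libraries called 35 and 29 of them, Flt3-ITD libraries 48 and 45, Smc3-deleted Flt3-ITD libraries 51 and 52, and control libraries 54 and 52. The last 400 kb held 20 regions, with 9 and 8 called in Smc3 del/+, 10 and 7 in Flt3-ITD, 16 and 13 in Smc3-deleted Flt3-ITD and 9 and 9 in control. Smc3 del/+ and control thus had similar counts in the last 400 kb and not in the first 600 taken as a whole. Within the first 600 kb the gap was uneven. Of 11 regions at chr1:40400000-40499999, Smc3 del/+ libraries called 8 and 8, control libraries 9 and 8, and Flt3-ITD libraries 6 and 6. A loss needs calls in both control libraries, which called 9 and 9 regions in the last 400 kb, so no more than 9 could be lost there. With 8.04% lost over all chromosomes, no loss among so few regions sets no contrast between the stretches. This boundary was drawn after its values were seen. Smc3 del/+ cells lost 4 of 49 regions against control in the 1 Mb before the window (8.16%) and 6 of 17 in the 1 Mb before that (35.3%), and no library had a peak in the 1 Mb after it.

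At the edges, region 1 at chr1:40001061-40002043, just inside the window, was called in 1 of 2 Smc3 del/+ libraries and 1 of 2 Flt3-ITD libraries, and in both of the other genotypes. The nearest region before the window, chr1:39993173-39994201, was called in all 8 libraries, with 957 and 540 bases covered in Smc3 del/+ and 266 to 1026 in the other 6. The last region inside, chr1:40901758-40902239, was called in the Smc3-deleted Flt3-ITD libraries alone.

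**Figure D4:**
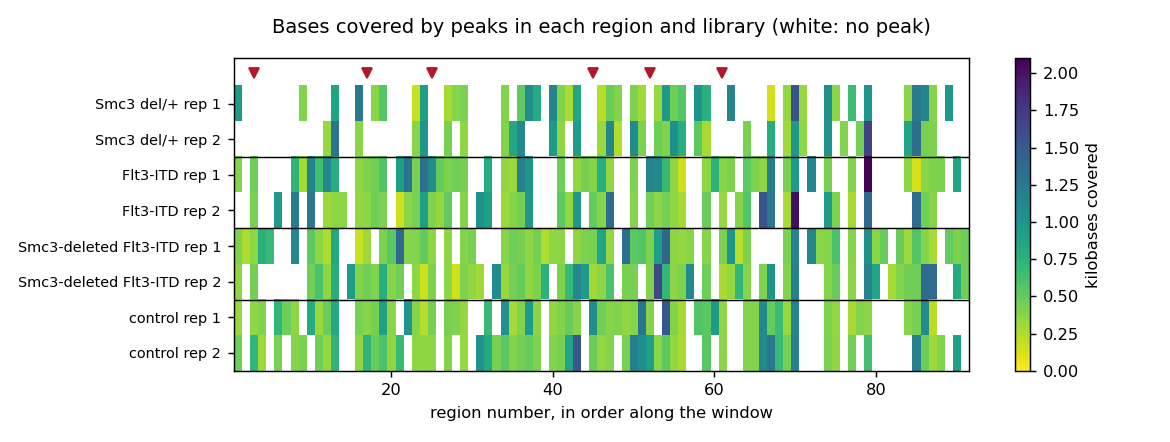
Kilobases covered by peaks in each of the 91 regions, in order along the window (columns), in each library (rows), with white where no peak was called. Triangles mark the 6 regions that only Smc3 del/+ lacked. The first 100 kb of the window, 12 regions picked after their values were seen, is mostly white in both Smc3 del/+ rows.

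The 16 lost regions were 592 to 1556 bases wide with a median of 872, against a median of 952 over all 91. They differed in how far other genotypes kept them. Flt3-ITD libraries called 11 and 10 of the 16, and Smc3-deleted Flt3-ITD libraries 11 and 10. Over all chromosomes, the regions lost by the same rule were called at 55.9% and 52.1% in Flt3-ITD and at 65.4% and 63.2% in Smc3-deleted Flt3-ITD. In 10 of the 16 no Smc3 del/+ library had a peak within 1 kb, and in 5 none within 10 kb. Region 32, chr1:40204059-40205004, was absent from both genotypes with a Smc3 deletion: no peak was called in Smc3 del/+ or Smc3-deleted Flt3-ITD, while Flt3-ITD libraries had 812 and 910 bases and control libraries 683 and 815. It was the only region of the 91 with that pattern. The share of the pattern over all chromosomes was not counted, so this count of 1 has nothing to be read against.

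Lost regions were of middling to low score in the libraries that kept them. Each peak carries a deposited score between 0.99 and 1, given by the authors with no stated meaning, which serves here only to rank peaks within a list. Peaks of the 6 other libraries in the 16 lost regions had a median percentile of 34.8, against 47.4 in all 91 regions and 28.1 in the regions lost by the same rule over all chromosomes. Of these peaks 8.11% had a score of exactly 1, against 23.5% of peaks of the same libraries in all 91 regions. In the regions lost by the same rule over all chromosomes it was 4.61%.

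The 24 regions called in all 8 libraries also set Smc3 del/+ apart, in their scores and widths. Such regions were 26.4% of the window and 31.5% of all regions. The 3 broadest show their spread. Region 70, chr1:40570663-40573492, was the broadest, with 1552 and 977 bases in Smc3 del/+, 955 and 2020 in Flt3-ITD, 1160 and 1178 in Smc3-deleted Flt3-ITD and 1156 and 1186 in control. Region 79, chr1:40737153-40739433, had 993 and 1690 bases in Smc3 del/+, 2084 and 1376 in Flt3-ITD, 1042 and 1173 in Smc3-deleted Flt3-ITD and 368 and 630 in control. Region 54, chr1:40448005-40450173, had 969 and 398 bases in Smc3 del/+, 675 and 435 in Flt3-ITD, 1409 and 709 in Smc3-deleted Flt3-ITD and 1518 and 528 in control. In all 3 the genotypes overlapped, except that both control libraries were lowest in region 79.

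Peaks with the highest score were few in the window in Smc3 del/+ cells. Their 2 libraries had 3 and 1 peaks with a score of exactly 1, which is 6.67% and 2.56% of their peaks there. Flt3-ITD libraries had 12 and 12 (19.0% and 21.8%), Smc3-deleted Flt3-ITD libraries 17 and 20 (23.6% and 28.6%), and control libraries 17 and 14 (25.0% and 21.9%). In the whole lists the share was 27.2% and 27.3% in Smc3 del/+, and 30.9% to 34.9% in the other 6. All libraries thus had a lower share in the window than in their list, and the gap was widest in both Smc3 del/+ libraries.

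**Figure D5:**
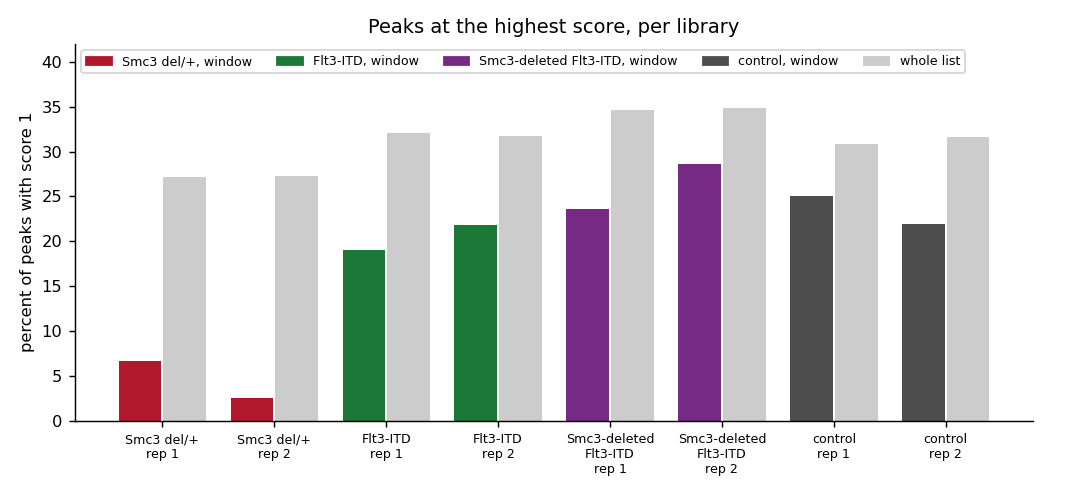
Percent of peaks with a score of exactly 1 among the peaks of the window (coloured by genotype) and among all peaks of the list (grey), per library. In the window the Smc3 del/+ libraries stand at 6.67% and 2.56% and the other 6 between 19.0% and 28.6%.

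Of 7 regions with a score of 1 in all of the other 6 libraries, 5 had it in neither Smc3 del/+ library (71.4%, with 8.25% over all chromosomes), although both called all 7. For each other genotype the same rule tested 1 region, region 86 each time, since both Smc3 del/+ libraries had to have a score of 1. That region had a score of 1 in every library, and 1 region sets no contrast to the 5 of 7. Over all chromosomes the shares were 0.673% for Flt3-ITD, 0.683% for Smc3-deleted Flt3-ITD and 0.420% for control. The 5 regions without a score of 1 in either Smc3 del/+ library were 23, 46, 50, 55 and 69. In region 23, chr1:40141513-40142073, peaks ranked at percentiles 50.6 and 30.1 of the Smc3 del/+ lists and at 82.5 to 84.6 in the other 6, where scores of 1 tie. In region 55, chr1:40461262-40462400, the percentiles were 53.6 and 25.3 in Smc3 del/+. Region 86, chr1:40846945-40848398, in the last 400 kb, had a score of 1 in all 8 libraries, and region 70 in all but Smc3 del/+ replicate 2. Of the 24 shared regions, 11 had a lower percentile in both Smc3 del/+ libraries than in each of the other 6 (45.8%, with 12.7% over all chromosomes), and 2 a higher one (8.33%, with 40.5%). Scores of 1 tie at a higher percentile in the Smc3 del/+ lists, 86.4 and 86.3, than in the others. Any region with a score of 1 in all 8 libraries, such as region 86, therefore counts as higher in Smc3 del/+ and cannot count as lower. The part of such ties in the shares over all chromosomes was not counted, so 8.33% and 40.5% are not on equal terms.

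Shared regions were not narrower in Smc3 del/+. The median length covered per shared region was 532.5 and 607.5 bases in Smc3 del/+, 416.5 and 437 in Flt3-ITD, 391.5 and 418.5 in Smc3-deleted Flt3-ITD and 400 and 433 in control. Over all chromosomes it was 449 and 445 bases in Smc3 del/+ and 410 to 435 in the other 6. Both Smc3 del/+ libraries covered more bases than each of the other 6 in 4 of the 24 (16.7%, with 7.39% over all chromosomes), which were regions 13, 55, 56 and 74. In region 56, chr1:40466489-40467478, they covered 555 and 787 bases, against 161 and 285 in Flt3-ITD, 331 and 410 in Smc3-deleted Flt3-ITD and 281 and 275 in control. In region 74, chr1:40656961-40658150, they covered 1048 and 1019 bases at percentiles 31.6 and 30.5, against 378 to 944 bases at percentiles 43.4 to 84.0 in the other 6. Only region 46, chr1:40378576-40379434, had fewer bases in both Smc3 del/+ libraries than in each of the others (4.17%, with 2.96%), at 229 and 319 bases against 340 to 858.

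A few regions went the other way. Region 71, chr1:40573543-40573898, was called in both Smc3 del/+ libraries, with 323 and 356 bases at percentiles 66.1 and 62.2, and in no other library. It was 1 of 32 regions called in both Smc3 del/+ libraries (3.13%, with 1.40% over all chromosomes), and it begins 50 bases after region 70, which all 8 libraries called. Region 58, chr1:40485856-40486958, had 1014 and 533 bases in Smc3 del/+ and 572 in control replicate 1, and no peak in any library with Flt3-ITD. Region 48, chr1:40409328-40409787, had 399 and 253 bases in Smc3 del/+ and 403 in control replicate 1, and likewise none with Flt3-ITD. Region 40, chr1:40319204-40320366, was called in both Smc3 del/+ and both control libraries, in 1 Smc3-deleted Flt3-ITD library and in neither Flt3-ITD library.

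Among the other genotypes, regions lost in Flt3-ITD against control with the highest ranks were 38, 40 and 49. Region 38, chr1:40307185-40308006, had no peak in Flt3-ITD libraries, 441 and 404 bases in Smc3-deleted Flt3-ITD and 367 and 404 in control, with a call in Smc3 del/+ replicate 1. Region 26, chr1:40145980-40146705, was gained in Flt3-ITD, with 495 and 339 bases there and no peak in any other library (1 of 46 regions called in both Flt3-ITD libraries, 2.17%, with 0.757% over all chromosomes). Smc3-deleted Flt3-ITD libraries alone called 6 of the 56 regions that both of them called (10.7%, with 8.09%). One of these was region 83, chr1:40803189-40803679, with 491 and 394 bases. Gains in Smc3-deleted Flt3-ITD against control ranked highest at region 62, region 83 and region 44, and region 62, chr1:40532244-40533425, was also called in Smc3 del/+ replicate 1 and Flt3-ITD replicate 1. Its losses against control ranked highest at regions 65, 6 and 32. Control libraries alone called 1 of 54 (1.85%, with 1.34%).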

How the data were processed

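ATAC-seq peak lists of 8 libraries were analysed, each library having its own list. The deposited lists have 6 columns and hold peak positions and a score per peak between 0.99 and 1. Per the submitters' processing notes, reads were aligned with Bowtie to mm9. The peak caller and its threshold, duplicate handling and any transposase offset were not given in the sources used here. Read depth is unknown. Starts were taken to count from 0 and are printed from 1.

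All 557040 peaks were joined into union regions wherever 1 bp or more was shared, with 1550 repeated intervals within lists. A library called a region when it had a peak in it. No pair of libraries shared more than 0.0279% of intervals. Whether the replicates of a genotype are different mice is not spelled out in the labels, so spreads may be technical. Merging and counting were tested on simulated data. Named regions are those absent from Smc3 del/+ alone, the 3 highest-ranked lost and gained per pair, and the 3 broadest shared; regions named beside a count of 5 or fewer, and regions 1, 13, 23, 20, 46, 50, 55, 56, 69, 74, 86 and those at the window's edges, were named after their values were seen. The members, lists and tests were chosen with earlier results of these data known. Permutations were enumerated exactly and adjusted with scipy 1.17.1, tables used pandas 2.3.3 with numpy 2.4.6, and plots matplotlib 3.10.9, all under Python 3.11.15.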

Additional observations from a re-analysis of the deposited data

Results flagged for a closer look

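For 6 values a Smc3 deletion went with opposite directions without and with Flt3-ITD, in that each Smc3 del/+ library lay below each control library and each Smc3-deleted Flt3-ITD library above each Flt3-ITD library. The difference between these effects was not tested, and the Smc3 del/+ values chose the window. For regions called, Smc3-deleted Flt3-ITD minus Flt3-ITD was 11 and Smc3 del/+ minus control was -21.5, which differ by 32.5. Over all chromosomes the same effects were 14517.5 and -6508.5 regions, so the directions are those of the lists as a whole. For peaks per library the effects were 12 and -24, which differ by 36. For peaks with a score of exactly 1 they were 6.50 and -13.5, which differ by 20. For the median score percentile in the window the effects were 4.79 and -7.52, which differ by 12.3. Kilobases covered in the window were looked at too and did not meet the rule. There Smc3-deleted Flt3-ITD replicate 1, at 35.1 kb, lay below Flt3-ITD replicate 1, at 36.7 kb.

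The single regions, 20 and 49, were flagged for their calls, in all Smc3-deleted Flt3-ITD and control libraries and in no Smc3 del/+ or Flt3-ITD library. Their opposite directions follow from that rule, and the share of this pattern over all chromosomes was not counted. Region 20 (chr1:40121134-40121725) had no peak in Smc3 del/+ or Flt3-ITD, 541 and 380 bases in Smc3-deleted Flt3-ITD and 361 and 347 in control. Its effects were 460.5 and -354 bases, which differ by 814.5. Region 49 (chr1:40410928-40412262) had no peak in Smc3 del/+ or Flt3-ITD, 1335 and 423 bases in Smc3-deleted Flt3-ITD and 342 and 431 in control. Its effects were 879 and -386.5 bases, which differ by 1265.5. Near region 49 both Smc3 del/+ libraries had a peak, 765 and 443 bases away.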

How the results depend on the processing

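Smc3 del/+ minus the other 6 libraries (-20.5 regions, -8.25 kb) kept its sign in every setting run, except that the kilobases reversed when labels were exchanged. It was -12.5 regions and -5.29 kb with scores of exactly 1, -13.7 and -6.05 kb with the upper 50% of each list, -12.8 and -3.07 kb with equal peak numbers, -5.50 and -2.11 kb when peaks had to cover 50% of a region, and -14.5 and -5.01 kb in a window 100 kb shorter at each side. With peaks up to 1 kb apart merged it was -14.3 regions. The cause of these shifts was not tested, save that fewer peaks enter under the score limits and fewer count as calls under the 50% coverage rule. Losses against control (16) were 10, 8, 8, 10 and 10 with scores of 1, the upper 50%, 50% coverage, merging and no Smc3 del/+ peak within 1 kb. Regions absent from Smc3 del/+ alone (6) were 3 with the upper 50% and 0 with 50% coverage. With Flt3-ITD and Smc3 del/+ libraries exchanged, as the free-text descriptions have them, the values were -1.17 regions, 2.22 kb, 7 losses and 0 absent regions, and the 6 absent regions and region 71 changed sign in mean bases covered (regions 3, 17, 25, 45, 52, 61 and 71 at 135, 76.2, 482, 59.5, 451, 120 and -113).

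Flt3-ITD genotypes minus control (-1.50 regions, 1.0 kb) could pass no test at 0.05 in any setting, since the smallest p was 0.0667 or more, and its size depended on the setting. It was 0 regions and -0.246 kb with scores of 1, -7.75 regions (exact permutation p = 0.0667) and -2.75 kb with equal peak numbers, 0.250 regions in the longer window, 0 in the shorter one and -8.75 regions and -2.93 kb with labels exchanged. Leaving out 1 library in turn gave -25.5 to -17.2 regions, -10.1 to -6.41 kb, 14 to 25 losses, 5 to 9 absent regions, and -3.67 to 1.33 regions and 0.447 to 1.96 kb for Flt3-ITD. Replicate numbers do not pair the libraries by label, and the correlation of replicate differences between genotypes lay between -0.0103 and 0.00806 over all regions. With the replicate number as a block, added after seeing the data, the exact permutation p was 0.889 for regions and 0.667 for kilobases, and the values stayed at -1.50 and 1.0 kb.

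Peak lists hold no read numbers, so openness below the authors' calling limit was not measured.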
